A study of Mus musculus with 2 samples.

Results

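The muscleblind genes *Mbnl1*, *Mbnl2* and *Mbnl3*, the CELF genes *Celf1* and *Celf2*, *Rbfox2*, the polypyrimidine tract binding genes *Ptbp1* and *Ptbp2*, and the RNA-binding motif genes *Rbm24* and *Rbm38* encode regulators of alternative splicing that act in muscle. These 10 genes were chosen by name from a gene table of 22095 genes. Of them, 9 are listed under these symbols and 1, *Rbfox2*, under its older symbol *Rbm9*, a synonym that RefSeq gives. RNA was sequenced from C2C12 cells, an established line of mouse myoblasts that fuse into myotubes. The cells were grown in medium with 10% fetal bovine serum. They were transfected with an siRNA oligo against the nuclear long non-coding RNA *Malat1* (siMalat1) or with a negative control oligo (siNC). Then they were differentiated in medium with 2% horse serum. Both libraries are of polyadenylated RNA, and there is 1 library per condition. Without replicates, the differences given here have no replicate check, so no test was made and no p-value or error is given.

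Splicing regulators of these families bind short motifs in pre-mRNA and decide, with their neighbors, whether an exon is kept. When myoblasts become myotubes, many transcripts of the contractile apparatus switch from exons used in dividing cells to exons used in muscle fibers. Muscleblind and Rbfox proteins mostly favor the exons of mature muscle, CELF proteins oppose muscleblind proteins at many of the same exons, and PTB proteins hold muscle exons back in myoblasts. The balance of muscleblind and CELF proteins is known for its disturbance in myotonic dystrophy, in which expanded repeats trap muscleblind proteins. The values here are the authors' FPKM (fragments counted per length of transcript and per size of the library), which sum all isoforms of a gene. They give the RNA level of a regulator, not its protein, its activity or the inclusion of any exon.

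The RNA aimed at by the oligo, *Malat1*, had 34.2 FPKM in siMalat1 and 41.8 FPKM in siNC. The difference is given throughout as the log2 ratio of siMalat1 over siNC after 0.1 FPKM was added to both, and for *Malat1* it was -0.29. Of 11099 genes tested, meaning those above 0 in both libraries and with a mean of 1 FPKM or more, 10.5% had a lower log2 ratio than *Malat1*. Apart from these FPKM, the study reported by RT-qPCR that *Malat1* was knocked down in its RNA-seq samples. All 9 skeletal muscle markers examined were tested, and their summed level was 11363 FPKM in siMalat1 and 7677 FPKM in siNC. The skeletal actin gene *Acta1* made up much of the sum, with 5199 FPKM in siMalat1 and 3326 FPKM in siNC (log2 ratio 0.64). Of these 9, 8 had a log2 ratio above 0, beside 42.6% of all genes tested, and 5 were at least 1.5-fold higher, beside 2.29%. The marker below 0 was *Myod1*, the myogenic determination factor, with 95.8 FPKM in siMalat1 and 113 FPKM in siNC (log2 ratio -0.23). The part of the muscle markers in the values of the splicing regulators was not tested. In bulk RNA, a different number of muscle cells and a different amount of RNA per cell cannot be told apart. Of the defining markers of other cell types, the leukocyte gene *Adgre1* (listed as *Emr1*), the adipocyte genes *Adipoq* and *Plin1* and the neuronal gene *Elavl4* were listed at 0 in both libraries. The 6 leukocyte markers summed to 0.674 FPKM in siMalat1 and 1.10 FPKM in siNC, and the 4 endothelial markers to 0.203 FPKM in siMalat1 and 0.307 FPKM in siNC. Most of the leukocyte sum was *Cd68* (0.592 FPKM in siMalat1 and 1.00 FPKM in siNC). Most of the endothelial sum was *Tek* (0.128 FPKM in siMalat1 and 0.238 FPKM in siNC). The 4 adipocyte markers were listed at 0 in siMalat1 and summed to 0.0186 FPKM in siNC. Of 7 neuronal markers, *Stmn2* (27.5 FPKM in siMalat1 and 24.8 FPKM in siNC) and *Nefl* (4.39 FPKM in siMalat1 and 7.76 FPKM in siNC) were tested, lay on opposite sides of 0 and are named after their values were seen. The part of other cell types in the results was not tested.

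All 10 splicing regulators were expressed and tested, at levels between 1.76 and 66.9 FPKM in siMalat1 and between 2.04 and 76.2 FPKM in siNC. *Ptbp1*, *Rbfox2*, *Mbnl1* and *Mbnl2* held the 4 highest levels in both libraries, in this order, and *Ptbp2* and *Mbnl3* were the lowest in both. The order changed in the middle, where *Rbm24* stood above *Celf1* and *Rbm38* above *Celf2* in siMalat1, and below them in siNC. FPKM is a level per transcript length, so levels of different genes can be compared, but neighbors in the order have no spread to be compared with. *Rbm24* and *Rbm38* were higher in siMalat1, and *Mbnl1*, *Mbnl2*, *Mbnl3*, *Celf1*, *Celf2*, *Rbfox2* and *Ptbp1* were lower. *Ptbp2* had nearly the same FPKM in both libraries. No regulator reached a fold of 1.5 in either direction, the fold counted here as a call. Among all genes tested, 2.29% were higher and 1.75% lower by at least that fold. By 2-fold or more, 0 regulators were higher and 0 lower, beside 0.721% and 0.189% of all genes tested.

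**Figure D1:**
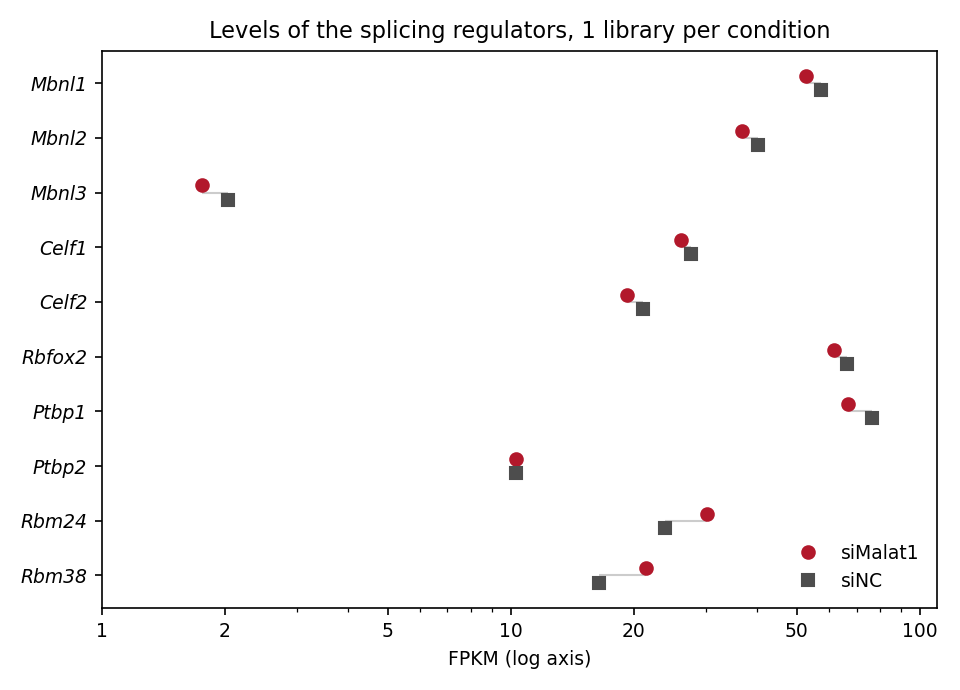
Level of each splicing regulator in FPKM on a log axis, with 1 point for the siMalat1 library (red circle) and 1 for the siNC library (gray square), joined by a line. *Ptbp1* was highest, at 66.9 FPKM in siMalat1 and 76.2 FPKM in siNC, *Mbnl3* was lowest, and the red point lies clearly to the right only for *Rbm24* and *Rbm38*.

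*Rbm24* and *Rbm38* encode closely related proteins with a single RNA recognition motif. Rbm24 is needed for the splicing of sarcomere transcripts in mouse heart and muscle, and Rbm38 is a target of p53. Both proteins are known to bind and stabilize mRNAs, among them those of the myogenic factor *Myog* and of the cell cycle inhibitor *Cdkn1a*. *Rbm24*, on chromosome 13 of mm9 from 46513669 to 46526468, stood at 30.2 FPKM in siMalat1 and 23.8 FPKM in siNC, a 1.27-fold higher level and a log2 ratio of 0.34. *Rbm38*, on chromosome 2 from 172847403 to 172860232, stood at 21.4 FPKM in siMalat1 and 16.4 FPKM in siNC, a 1.30-fold higher level and a log2 ratio of 0.38. These were the only members of the 10 that were at least 25% higher, and 0 were at least 20% lower, beside 6.50% and 8.43% of all genes tested. Of all genes tested, 94.1% had a lower log2 ratio than *Rbm24* and 95.1% a lower one than *Rbm38*. The 2 genes differed between the libraries by much the same factor, so that *Rbm24* had 1.41 times the FPKM of *Rbm38* in siMalat1 and 1.45 times in siNC. Neither shares its locus with another gene of the table. *Myog* stood at 857 FPKM in siMalat1 and 525 FPKM in siNC (log2 ratio 0.71). *Cdkn1a* stood at 1004 FPKM in siMalat1 and 786 FPKM in siNC (0.35). Both lay above 0, beside 42.6% of all genes tested, and only *Myog* reached 1.5-fold, beside 2.29%. *Myog* is also among the 9 skeletal muscle markers, and both were listed with earlier results of these data known. A part of *Rbm24* or *Rbm38* in these levels was not tested.

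The promoter windows of *Rbm24* and *Rbm38* are shown because both genes were higher in siMalat1. That of *Ptbp1* is shown because its FPKM was lower in siMalat1 by the largest amount of the 10, although *Mbnl3* had a lower log2 ratio. Each window holds 300 bases from RefSeq in build GRCm38.p6, from 250 bases before the start of the transcript to 50 after it, and the build differs from that of the table. They lie at chr13:46418050-46418349, chr2:173021652-173021951 and chr10:79854182-79854481, each on the plus strand. Capitals mark the E-box CANNTG, the motif of MyoD and other basic helix-loop-helix factors, which reads the same on both strands.
*Rbm24* promoter: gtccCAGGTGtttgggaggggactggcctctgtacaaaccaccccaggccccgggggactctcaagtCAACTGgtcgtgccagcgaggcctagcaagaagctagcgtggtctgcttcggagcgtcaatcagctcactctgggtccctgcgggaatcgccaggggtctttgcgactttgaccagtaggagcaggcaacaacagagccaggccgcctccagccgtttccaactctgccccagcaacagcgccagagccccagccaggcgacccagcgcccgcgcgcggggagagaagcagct
*Rbm38* promoter: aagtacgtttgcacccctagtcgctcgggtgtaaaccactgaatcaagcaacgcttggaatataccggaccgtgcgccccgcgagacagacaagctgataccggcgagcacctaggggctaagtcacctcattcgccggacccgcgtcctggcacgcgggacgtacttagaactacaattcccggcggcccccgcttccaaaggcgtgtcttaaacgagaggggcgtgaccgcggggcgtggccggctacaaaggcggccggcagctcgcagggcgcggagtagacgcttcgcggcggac
*Ptbp1* promoter: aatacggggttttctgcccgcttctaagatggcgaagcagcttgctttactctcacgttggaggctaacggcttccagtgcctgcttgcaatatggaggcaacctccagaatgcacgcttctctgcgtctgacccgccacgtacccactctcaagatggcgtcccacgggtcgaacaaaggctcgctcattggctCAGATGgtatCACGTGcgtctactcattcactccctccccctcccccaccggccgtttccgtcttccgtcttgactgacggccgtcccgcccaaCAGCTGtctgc

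The *Rbm24* window holds 2 E-boxes, CAGGTG starting 246 bases and CAACTG starting 183 bases before the start, and the *Rbm38* window holds none. The *Ptbp1* window holds 3, CAGATG starting 55 bases and CACGTG starting 45 bases before the start, and CAGCTG starting at base 40 of the transcript. Of the 10 genes, 9 have a RefSeq window, and their 14 windows, several for *Celf2* and *Mbnl1*, include 8 with an E-box. Those windows belong to *Celf2*, *Mbnl1*, *Mbnl3*, *Ptbp1* and *Rbm24*. The *Celf2* windows at chr2:7396149-7396448 and chr2:7395951-7396250 overlap and hold the same CACTTG and CAAGTG, so these sites are counted in both. Of all 32851 windows, 72.3% hold CANNTG and 16.3% hold CAGCTG, so these letters are common in windows of this length. A match is a description of the sequence and not a bound site, and its absence says only that these letters are not in the window.

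*Ptbp1* encodes the polypyrimidine tract binding protein of most dividing cells, which silences many exons. Its paralog *Ptbp2* is best known from neurons and is also present in myoblasts. Ptbp1 protein makes cells skip an exon of *Ptbp2*, and the shortened RNA is then destroyed by nonsense-mediated decay. *Ptbp1*, on chromosome 10 of mm9 from 79314122 to 79337379, stood at 66.9 FPKM in siMalat1 and 76.2 FPKM in siNC, a log2 ratio of -0.19. Its difference in FPKM (-9.34) was the largest of the 10 regulators, among which it also had the highest level. Of all genes tested, 21.4% had a lower log2 ratio, so *Ptbp1* lay well inside the spread of all genes. Its locus is shared in the table with *BC005764* and *E130317F20Rik*, so its FPKM is less certain. *Ptbp2*, on chromosome 3 from 119421660 to 119486306, stood at 10.3 FPKM in both libraries, and its log2 ratio of 0.01 changes sign with the scaling. The FPKM of *Ptbp1* was therefore 6.49 times that of *Ptbp2* in siMalat1 and 7.42 times in siNC. *Ptbp2* made up 13.4% of the summed FPKM of the pair in siMalat1 and 11.9% in siNC. This ratio within a library does not depend on the scaling between the libraries, and its log2 difference of -0.19 was the largest in size among the 6 pairs of paralogs compared. *Ptbp3*, the third gene of the family, is listed as *Rod1* and was not part of these pairs, so the ranking does not cover it. It stood at 13.1 FPKM in siMalat1 and 15.9 FPKM in siNC, with a log2 ratio of -0.27. GENCODE M21, on build GRCm38, annotates 3 transcripts subject to nonsense-mediated decay for *Ptbp1* and 2 for *Ptbp2*, and the FPKM of a gene do not separate them from coding transcripts.

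Muscleblind proteins bind RNA through zinc fingers and promote the exon patterns of adult muscle. *Mbnl1* is the main muscleblind gene of skeletal muscle, *Mbnl2* can in part replace it, and *Mbnl3* is expressed in embryonic and regenerating muscle and opposes differentiation in mouse myoblast cultures. *Mbnl1*, on chromosome 3 of mm9 from 60305174 to 60433670, stood at 52.7 FPKM in siMalat1 and 57.2 FPKM in siNC, a log2 ratio of -0.12. *Mbnl2*, on chromosome 14 from 120674891 to 120830920, stood at 36.7 FPKM in siMalat1 and 40.2 FPKM in siNC, a log2 ratio of -0.13. *Mbnl3*, on chromosome X from 48466671 to 48559009, stood at 1.76 FPKM in siMalat1 and 2.04 FPKM in siNC, and its log2 ratio of -0.20 was the lowest of the 10. The 3 genes kept nearly the same proportions. *Mbnl1* made up 57.8% of the muscleblind FPKM in siMalat1 and 57.5% in siNC, *Mbnl2* 40.2% and 40.4%, and *Mbnl3* 1.93% and 2.05%. The muscleblind sum was 91.1 FPKM in siMalat1 and 99.5 FPKM in siNC. *Mbnl3* is the member with the least FPKM, and 19.6% of all genes tested had a log2 ratio below its own, so it lay well inside the spread of all genes.

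CELF proteins bind GU-rich RNA, act on splicing in the nucleus and promote mRNA decay in the cytoplasm. *Celf1*, on chromosome 2 of mm9 from 90780615 to 90857210, stood at 26.0 FPKM in siMalat1 and 27.5 FPKM in siNC, a log2 ratio of -0.08. *Celf2*, also on chromosome 2, from 6460744 to 7317825, stood at 19.2 FPKM in siMalat1 and 21.0 FPKM in siNC, a log2 ratio of -0.13. It shares its locus with *5031426D15Rik*, so its FPKM is less certain. *Celf1* made up 57.5% of the FPKM of the pair in siMalat1 and 56.7% in siNC. The muscleblind to CELF balance at the RNA level was much alike in both libraries, with 2.03 times as much *Mbnl1* as *Celf1* in siMalat1 and 2.08 times in siNC. The other CELF genes, best known from neurons, were near the floor, and none was tested. *Celf4* stood at 0.294 FPKM in siMalat1 and 0.480 FPKM in siNC, *Celf5* at 0.315 FPKM in siMalat1 and 0.374 FPKM in siNC, and *Celf6* at 0.0248 FPKM in siMalat1 and 0.0456 FPKM in siNC. *Celf3* was listed at 0 in siMalat1 and at 0.00460 FPKM in siNC.

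*Rbfox2* encodes an RNA-binding protein that recognizes UGCAUG and whose splicing targets in mouse myoblasts include genes of cell fusion. Listed as *Rbm9* on chromosome 15 of mm9 from 76909420 to 77137483, it stood at 61.5 FPKM in siMalat1 and 66.3 FPKM in siNC, a log2 ratio of -0.11. *Rbfox1*, the paralog typical of mature muscle, heart and brain, stood at 0.925 FPKM in siMalat1 and 0.831 FPKM in siNC and was not tested. *Rbfox2* was thus far more abundant than *Rbfox1* in both libraries.

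The median log2 ratio was -0.11 over the 10 regulators and -0.04 over all genes tested, whose 25th and 75th percentiles were -0.16 and 0.10. Only *Rbm24* and *Rbm38* lay above the 75th percentile, only *Mbnl3* and *Ptbp1* lay below the 25th, and the other 6 lay between them. The 95th percentile was 0.38, so that *Rbm38* lay just past it and *Rbm24* just inside. Over the 9067 genes tested within the FPKM range of the regulators it was 0.343, and *Rbm24* (0.344) lay just past that value. Below 0 lay 7 of the 10, beside 57.4% of all genes tested, and above 0 lay 3, beside 42.6%. Both follow the scaling: with equal FPKM sums 8 of the 10 lay below 0, beside 67.9% of all genes tested, and with equal 75th percentiles 7 did, beside 51.2%. With other scalings and pseudocounts, 6 settings in all, 9 of the 10 kept the sign of their log2 ratio and *Ptbp2* did not.

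**Figure D2:**
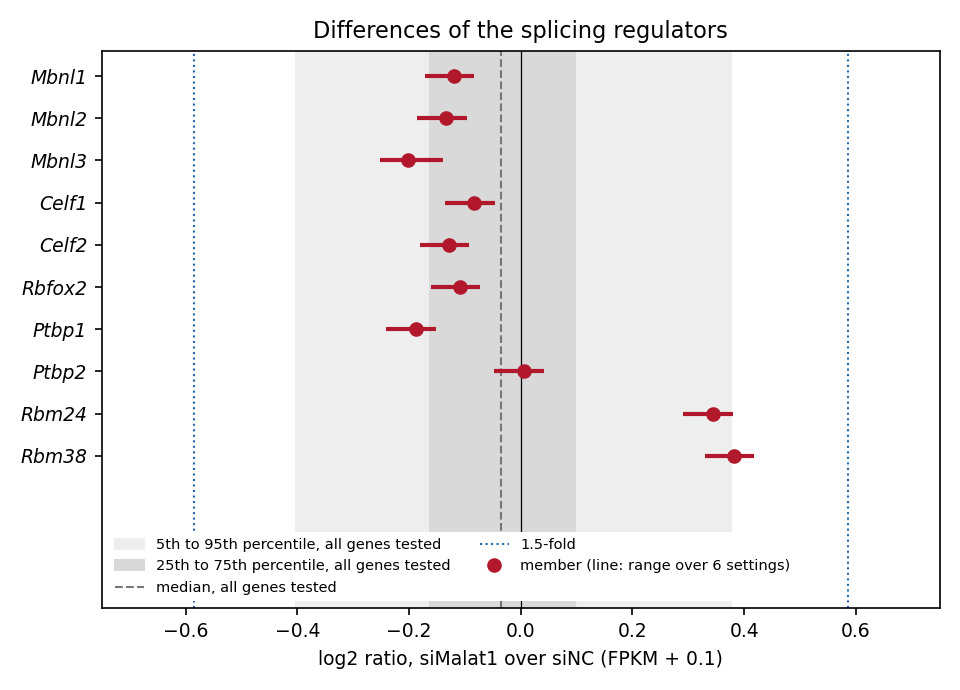
Log2 ratio of siMalat1 over siNC for each splicing regulator (points), with lines that span its values under 6 other scalings and pseudocounts, over the percentile bands of all 11099 genes tested. *Rbm24* (0.34) and *Rbm38* (0.38) lie at the upper edge of the wide band, the other 8 lie between -0.20 and 0.01, and no point reaches the dotted lines at 1.5-fold.

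The siRNA is shown because its seed, bases 2 to 8 of a strand (capitals), can pair with 3' UTRs of RNAs other than *Malat1*. The strands are those named siMalat1 in the study's oligo list, without their overhangs of deoxythymidine. The list also names a second oligo against *Malat1*, and the sample labels do not say which was sequenced.
siMalat1 antisense strand: uUACUUAUcacucauucac
siMalat1 sense strand: gUGAAUGAgugauaaguaa

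In the longest annotated 3' UTR of each regulator (GENCODE M21, build GRCm38), a match to the seed of the antisense strand, ATAAGTA, occurs once in *Mbnl3* and once in *Celf2*. The other 8 regulators hold none, and no regulator holds TCATTCA, the match to the seed of the sense strand. The sites are shown with the match in capitals, starting at base 1205 of the 3' UTR of *Mbnl3* and at base 567 of that of *Celf2*.
*Mbnl3* site: tctttgaataATAAGTAagatgcagtc
*Celf2* site: ttcttttaatATAAGTAggattttatt

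Of 9604 genes tested with an annotated 3' UTR of at least 50 bases, 8.54% hold ATAAGTA and 12.1% hold TCATTCA. The log2 ratio of *Celf2* (-0.13) lay inside the range of the 8 regulators without a match, the lowest of which was *Ptbp1* (-0.19), and that of *Mbnl3* (-0.20) lay just below it. A part of these sites in the values was not tested.

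Of 19 other factors that act on exon choice, 14 were tested, and 0 were higher and 0 lower by 1.5-fold, beside 2.29% and 1.75% of all genes tested. Above 0 lay 9 and below it 5, beside 42.6% and 57.4% of all genes tested, with a median log2 ratio of 0.02. These sides depend on the scaling, and with equal FPKM sums 4 lay above 0 and 10 below, with a median of -0.04. The highest log2 ratio was that of *Srpk3*, a muscle kinase that phosphorylates splicing factors (15.1 FPKM in siMalat1 and 11.8 FPKM in siNC, 0.36), followed by *Fxr1* (135 FPKM in siMalat1 and 120 FPKM in siNC, 0.16) and *Rbm4* (9.45 FPKM in siMalat1 and 8.67 FPKM in siNC, 0.12), which both encode RNA-binding proteins. The lowest was that of *Raver1*, which encodes a partner of PTB proteins (17.6 FPKM in siMalat1 and 23.7 FPKM in siNC, -0.43), followed by the RNA helicase gene *Ddx17* (71.7 FPKM in siMalat1 and 86.7 FPKM in siNC, -0.27) and *Rbm5* (34.7 FPKM in siMalat1 and 37.7 FPKM in siNC, -0.12). *Fxr1* and *Ddx17* share their loci with another gene. The epithelial regulator *Esrp1* was listed at 0 in both libraries.

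Among transcripts whose exons these regulators are known to switch, many genes of the sarcomere and of calcium handling had higher levels in siMalat1. Of 29 such genes, 27 were tested, and 10 were at least 1.5-fold higher in siMalat1 and 0 at least 1.5-fold lower, beside 2.29% and 1.75% of all genes tested. Their median log2 ratio was 0.29. Under the other scalings and pseudocounts the count of higher genes was 8 to 11. The largest log2 ratios were those of *Mef2c*, a transcription factor gene with muscle exons (11.1 FPKM in siMalat1 and 5.81 FPKM in siNC, 0.93), *Ldb3*, a Z disc gene (49.7 FPKM in siMalat1 and 27.9 FPKM in siNC, 0.83), and the calcium channel gene *Cacna1s* (38.0 FPKM in siMalat1 and 21.3 FPKM in siNC, 0.83). Also past this fold were the sarcomere genes *Nrap*, *Tnnt3*, *Ttn*, *Neb* and *Tnnt2*, the calcium pump gene *Atp2a1* and *Trdn* of the triad, with log2 ratios between 0.61 and 0.79. *Nrap*, *Tnnt3* and *Atp2a1* share their loci with other genes. The lowest were those of the kinase gene *Camk2g* (54.5 FPKM in siMalat1 and 62.0 FPKM in siNC, -0.19), the phosphatase gene *Mtmr3* (17.8 FPKM in siMalat1 and 20.2 FPKM in siNC, -0.18) and the pyruvate kinase gene *Pkm*, a known target of PTB proteins listed as *Pkm2* (756 FPKM in siMalat1 and 808 FPKM in siNC, -0.10). *Tpm1*, a classical target of PTB proteins, was listed at 0 in both libraries although other tropomyosin RNA is abundant, so a listed 0 can be a failed estimate. Most of the genes past 1.5-fold are themselves typical of muscle, and the list was written with earlier results of these data known. Which of their exons were used cannot be read from these values.

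**Figure D3:**
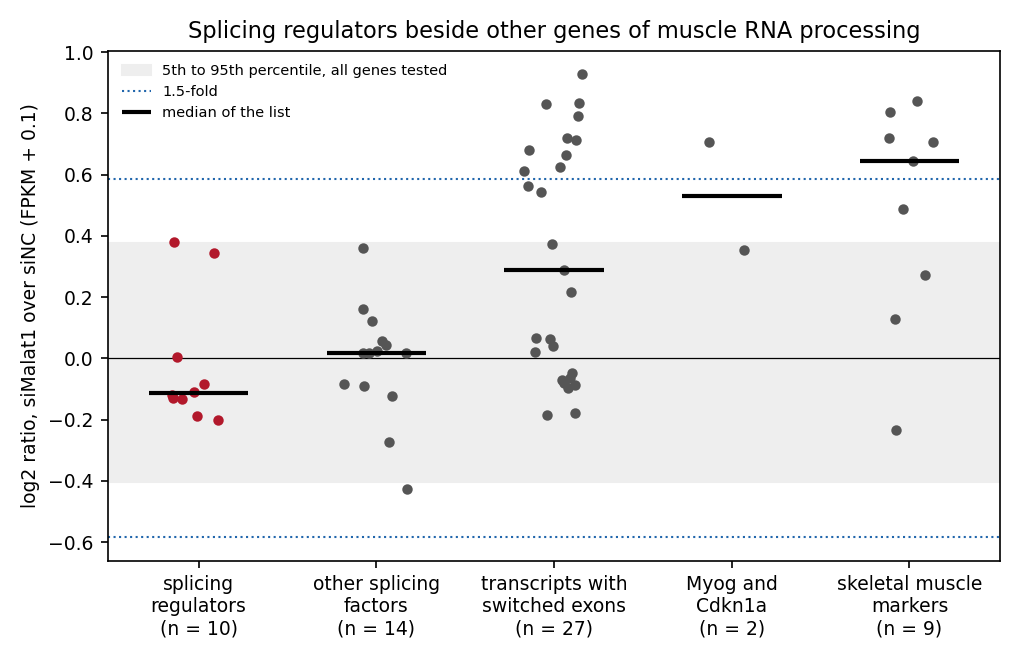
Log2 ratio of siMalat1 over siNC for each tested gene of 5 lists (points), with the median of each list (bar), over the 5th to 95th percentile of all genes tested (gray band). The splicing regulators have a median of -0.11 and no gene past 1.5-fold (dotted lines), while the transcripts with switched exons have a median of 0.29 with 10 genes past it, and *Myog* and *Tnnt3* stand in 2 lists each.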

How the data were processed

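Polyadenylated RNA of 1 siMalat1 and 1 siNC culture of C2C12 cells was read from both ends at 50 bp. The study's methods and the submitters' processing notes name TopHat2 2.0.9 for mapping, with mm9 as the genome, and the deposited FPKM were estimated by the authors with Cufflinks 2.1.1 and compared with Cuffdiff 2.1.1. Gene annotation and strand are not given in the sources used here, so overlapping and antisense genes cannot be separated. The table also holds the authors' log fold change and significance call, and neither was used. FPKM hold no counts. Among 1937 low genes (mean no higher than 0.1 FPKM), 489 had ratios within 0.004 (natural log) of 1.09 times a ratio of whole numbers up to 6. At the other factors tried in place of 1.09 the median was 64 genes. The 489 are too few to recover reads, so depth is unknown and no interval is given.

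Log2 ratios of FPKM plus 0.1 were computed for all genes. Genes above 0 in both libraries whose mean reached 1 FPKM were tested, which here means compared with a fold of 1.5 and not with a statistical test. Starts of loci were raised by 1, since 6044 of 16386 single-gene loci then have the length of the RefSeq gene, against 414 as given. All members are named, and of each gene list other than the marker lists the 3 highest and 3 lowest tested genes, those past 1.5-fold and all paralogs. Of the marker lists, counts, sums and defining markers at 0 are given, and *Acta1*, *Myod1*, *Cd68*, *Tek*, *Stmn2* and *Nefl* were named after their values were seen. The paralog *Rbfox3* matched no row by symbol or RefSeq synonym and is not analysed here. Members and lists were chosen with earlier results of these data known. Other pseudocounts, scalings, filters and folds were tried. Scripts (Python 3.11.15, numpy 2.4.6, pandas 2.3.3, matplotlib 3.10.9) were tested on simulated data.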

Additional observations from a re-analysis of the deposited data

How the results depend on the processing

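Called at 25% higher in place of 1.5-fold, the count of regulators higher in siMalat1 was 2, *Rbm24* and *Rbm38*, beside 6.50% of all genes tested. At 2-fold it was 0, beside 0.721%. With equal FPKM sums the log2 ratio of *Ptbp2* was -0.047. Pseudocounts of 0.01, 1 or 0 FPKM, the other scalings, other filters on low values, and leaving out genes that share a locus or *Rbfox2* (added after the data were seen) kept the count at 0 in both directions. Over all genes tested, 254 were higher and 194 lower by 1.5-fold, against 178 and 77 with a pseudocount of 1 FPKM, 127 and 76 of 8566 with a mean of at least 5 FPKM, and 543 and 486 of 15080 with no minimum. In these settings the median log2 ratio of the regulators stayed below 0. The largest scaling shift of the median of all genes tested was from -0.04 to -0.09. Adding 0.1 FPKM changed the sign of no ratio between paralogs. The planned comparison of protein sequences was not run. No paired analysis was possible because each condition has 1 library. With 1 library each, no difference can be told from variation between cultures.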
